A study of Mus musculus with 12 samples.

Results

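Skeletal muscle runs through the tissue of the embryonic upper face, and the set described here holds 35 of its genes, out of the 53392 genes in the deposited tables. The members were chosen by symbol from knowledge of muscle, with earlier results of these data known: 2 paired-box progenitor factors, 4 myogenic regulatory factors, 2 head muscle repressors, 10 thin filament genes, 7 genes of the thick filament, titin and M-band, 2 genes of the Z-disc and intermediate filament, 1 fusion gene, 2 genes of excitation-contraction coupling, 4 genes of the neuromuscular junction and 1 energy enzyme. They were measured by RNA sequencing of polyA RNA in 12 libraries from mouse embryos on the 129S4 background, in 4 groups of 3. At E13.5 (days of embryonic development) palatal shelf mesenchyme came from wild-type embryos (Pdgfra+/+) and from embryos with 2 copies of the PI3K allele of Pdgfra (PdgfraPI3K/PI3K, called PI3K here), a knock-in that stops the PDGFRα receptor from binding phosphatidylinositol 3-kinase. At E11.5 maxillary process mesenchyme came from control embryos (Srsf3 fl/fl without the Wnt1-Cre transgene) and from conditional knockout embryos (Srsf3 fl/fl with Wnt1-Cre, called cKO here). Both maxillary groups carry the floxed allele of the splicing factor gene Srsf3. The Wnt1-Cre transgene acts in the dorsal neural tube and neural crest, from which the facial connective tissue comes, while muscle cells of the head come from mesoderm. Per the labels the covering ectoderm was removed after trypsin digestion, and no step of the protocol sorted or removed muscle cells.

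Skeletal muscle forms when progenitors switch on the myogenic regulatory factors, basic helix-loop-helix proteins that bind the short DNA motif called the E-box. Myf5 and Myod1 act at commitment, Myog drives differentiation, and the contractile proteins of the sarcomere follow, together with the proteins of cell fusion, calcium release and the nerve contact. Head muscles do not use Pax3 upstream of this step as trunk and limb muscles do. They depend instead on Tbx1 and Isl1 and on the repressor genes Msc (MyoR) and Tcf21 (capsulin). Pax3 is also a gene of the neural crest itself.

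The upstream sequences of 3 members are printed as examples of the E-box. They were picked by mean TPM from the members whose window holds the form CAGCTG, so its presence in them is not a result. Myl1, also picked by this rule, was left out because its window holds exon bases. Actc1, which was higher in TPM than Acta1 and Des, had no E-box of any form in its window. RefSeq promoters (build GRCm38.p6) were found for 26 of the 35 members, 28 promoters in all. Each sequence below covers the 250 bases before the RefSeq start, on the gene's strand, with the E-box CAGCTG in capitals. They belong to Mylpf (fast regulatory light chain; chr7:127211358-127211607, plus strand), Acta1 (skeletal α-actin; chr8:123894776-123895025, minus strand) and Des (desmin; chr1:75360042-75360291, plus strand).

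Mylpf: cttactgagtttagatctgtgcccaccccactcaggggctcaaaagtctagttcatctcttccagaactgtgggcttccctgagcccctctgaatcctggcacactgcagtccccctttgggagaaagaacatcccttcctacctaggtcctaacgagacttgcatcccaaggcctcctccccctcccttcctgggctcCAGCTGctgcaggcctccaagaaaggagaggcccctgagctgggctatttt
Acta1: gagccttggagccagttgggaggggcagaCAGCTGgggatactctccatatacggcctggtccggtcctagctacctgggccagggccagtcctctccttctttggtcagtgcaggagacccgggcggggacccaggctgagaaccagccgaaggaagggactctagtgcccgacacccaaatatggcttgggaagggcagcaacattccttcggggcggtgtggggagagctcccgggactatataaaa
Des: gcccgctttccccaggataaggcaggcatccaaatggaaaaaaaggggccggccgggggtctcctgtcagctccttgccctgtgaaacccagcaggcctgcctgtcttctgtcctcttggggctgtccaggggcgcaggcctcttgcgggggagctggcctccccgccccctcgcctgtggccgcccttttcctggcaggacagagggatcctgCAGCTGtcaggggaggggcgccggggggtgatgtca

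The motif lay 51 bases before the start in Mylpf, 221 in Acta1 and 36 in Des. GENCODE placed 0 exon bases in these windows; that of Mylpf is an intron of longer Mylpf transcripts, that of Acta1 lies within an intron of Gm20388 on the opposite strand, and that of Des is intergenic. CAGCTG, which reads the same on both strands, was present in 12 of the 28 member promoters (42.9%) and in 13.0% of all 32851 promoters of the same length. The general E-box CANNTG, which includes CAGCTG, was present in 78.6% of the member promoters and 66.2% of all. CACCTG or its reverse complement CAGGTG, another form of CANNTG, was present in 21.4% and 17.2%. TATAAA on the gene strand was present in 10.7% and 7.59%, the MEF2 site on either strand in 7.14% and 2.92%, and the CArG box on either strand in 10.7% and 1.47%; the last was found in Acta1, Actc1 and Myom1. These shares describe letters in a window and do not show binding.

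The palatal shelf libraries held 30509338 to 37406960 estimated counts and the maxillary libraries 15932541 to 27887654. Pdgfra itself does not check the PI3K label, since the allele changes the protein. Srsf3 was at 407 to 470 TPM (transcript abundance scaled for length and depth, so that levels of different genes can be compared) in controls and 320 to 441 TPM in cKO libraries, with a log2 fold change of 0.03 (SE 0.14, edgeR adjusted p = 0.954). The gene-level value does not separate the groups, so cKO below means the libraries labelled so. Neural crest mesenchyme markers summed to 1500 to 1959 TPM in the palatal shelf and 1201 to 2484 TPM in the maxillary process, so the labelled tissue was present in both. The 8 ectoderm markers summed to 306 to 700 TPM in the palatal shelf and 1.66 to 13.7 TPM in the maxillary process. The palatal libraries therefore still held ectodermal RNA, which goes against their label of mesenchyme.

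More of the muscle genes were detected in the PI3K palatal shelf libraries and wild-type library 1 than in the control maxillary process, and their level differed widely between palatal libraries. At least 10 estimated counts were reached by 32, 12 and 13 members in wild-type palatal shelf libraries 1, 2 and 3, and by 33, 29 and 32 members in PI3K libraries 1, 2 and 3. Control maxillary libraries reached it for 6, 8 and 9 members, and cKO libraries for 17, 16 and 16. The palatal libraries were deeper, which favours them on this measure. At least 1 TPM was reached by 22, 9 and 8 members in wild-type palatal libraries and 29, 22 and 28 in PI3K libraries. It was reached by 6, 7 and 9 members in control libraries and 14, 11 and 12 in cKO libraries. On this scale wild-type palatal libraries 2 and 3 were close to the controls. Without Pax3, the 34 other members summed to 146, 23.2 and 26.4 TPM in the wild-type palatal shelf, 632, 80.3 and 317 TPM in the PI3K palatal shelf. The same sum was 23.1, 19.6 and 27.5 TPM in control libraries and 55.7, 29.8 and 27.5 TPM in cKO libraries. PI3K libraries 1 and 3 and wild-type library 1 were the 3 highest, and wild-type libraries 2 and 3 were within the range of the maxillary controls. In bulk tissue, fewer muscle cells and less muscle RNA per cell cannot be told apart.

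**Figure D1:**
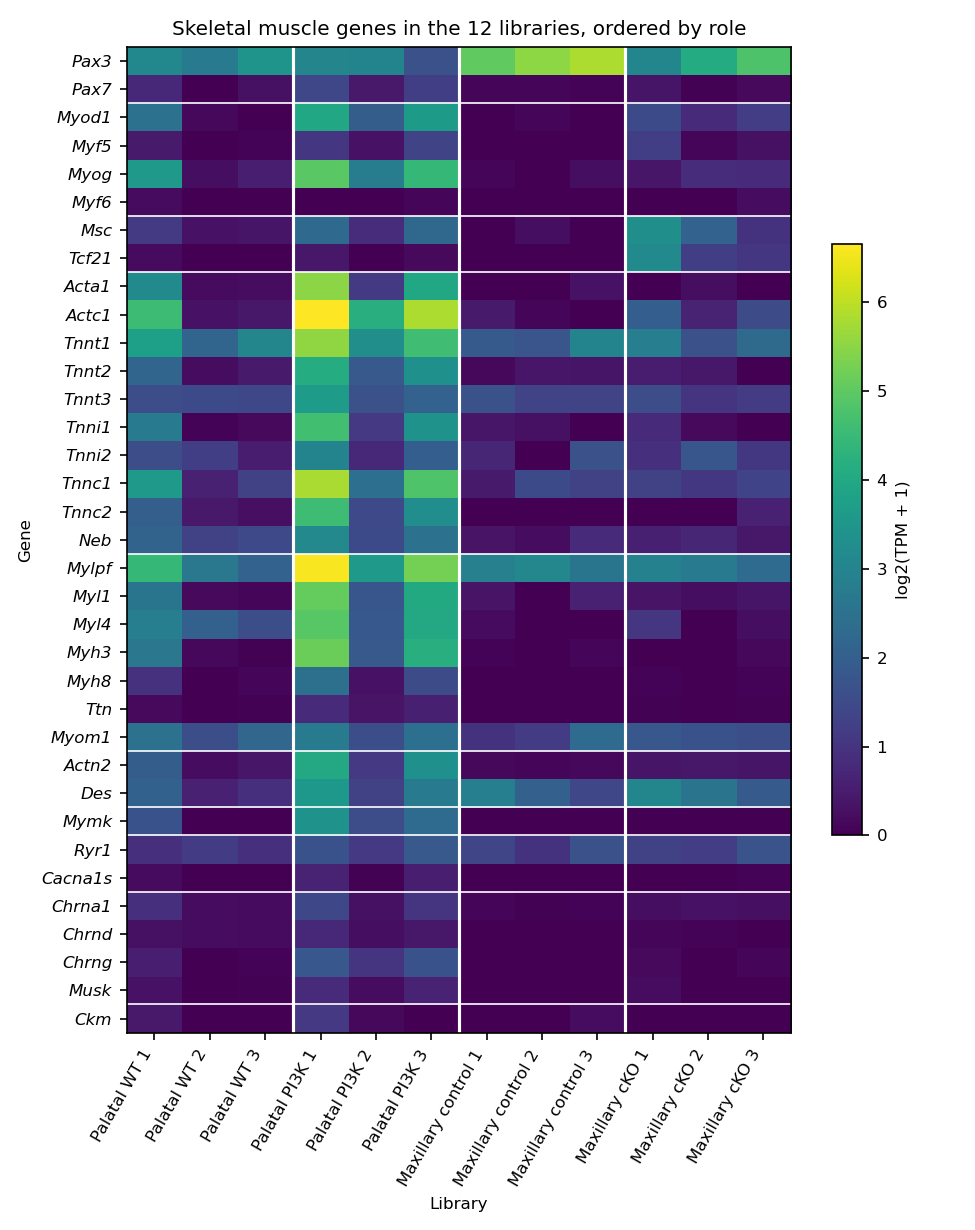
Heat map of log2(TPM + 1) for the 35 members (rows, ordered by role, white lines between roles) in the 12 libraries (columns, white lines between groups). The contractile genes are bright in palatal shelf PI3K libraries 1 and 3 and wild-type library 1 and dark in the maxillary process, where Pax3 is bright.

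Within the palatal shelf the members varied together from library to library, and the order of the libraries mixed the genotypes. The order was counted in CPM (counts scaled by TMM-normalised library size), and for some genes it differs in TPM. The order PI3K 1, PI3K 3, wild-type 1, PI3K 2, then wild-type 2 and 3, was seen in 26 of the 35 members, against 0.654% of the 16525 genes tested. PI3K library 1 was the highest in 32 members (11.9% of all genes), and wild-type libraries 2 and 3 were both lowest in 31 (6.6%). Wild-type library 1 was above PI3K library 2 in 33 members, against 52.2% of all genes. PI3K was above wild-type in each same-numbered pair of libraries in 28 members, against 12.7% of all genes, although the labels do not say that a number marks a pair. These counts describe 6 libraries and carry no test.

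Of the myogenic regulatory factors, Myog and Myod1 showed this order, and Myf5 and Myf6 did not. Myog (ENSMUSG00000026459.5; chromosome 1, 134289989 to 134292548, plus strand, GRCm38), the factor of differentiation, was at 10.9, 0.182 and 0.467 TPM in wild-type libraries 1 to 3 and 30.1, 5.96 and 20.4 TPM in PI3K libraries 1 to 3. Wild-type library 1 lay inside the PI3K range, so the groups overlapped. Myod1 (ENSMUSG00000009471.4; chromosome 7, 46376474 to 46379099, plus strand), a factor of commitment, was at 4.59, 0.114 and 0 TPM in wild-type and 14.5, 2.93 and 11.4 TPM in PI3K. Its order was the same and its groups overlapped in the same way. Myf5, the earliest of the factors, was at 0.405, 0 and 0.054 TPM in wild-type and 1.07, 0.253 and 1.55 TPM in PI3K. Here PI3K library 3 was the highest. Myf6, a factor of late fibres, had at most 3 estimated counts in any library.

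The progenitor factors differed from each other. Pax7, which marks muscle stem and progenitor cells, was at 0.682, 0.017 and 0.226 TPM in wild-type and 1.69, 0.367 and 1.36 TPM in PI3K, in the order of the muscle factors. Pax3 was at 7.58, 5.52 and 9.85 TPM in wild-type and 7.08, 6.98 and 2.14 TPM in PI3K. It did not follow the other members: its highest library was wild-type 3 and its lowest PI3K 3. The repressor gene Msc was at 1.2, 0.263 and 0.294 TPM in wild-type and 3.79, 0.786 and 3.71 TPM in PI3K, again in the shared order. Tcf21 stayed below 0.4 TPM in the palatal shelf, with 3 counts over the wild-type libraries and 10 over the PI3K libraries, a ratio of 3.32 whose 95% counting interval, 0.854 to 18.8, includes no difference.

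The highest TPM of any member in a single library was that of the thin filament gene Actc1, in PI3K library 1. Actc1 (cardiac α-actin, the main sarcomeric actin of embryonic skeletal muscle; ENSMUSG00000068614.7; chromosome 2, 114047282 to 114053548, minus strand) was at 22.8, 0.259 and 0.356 TPM in wild-type and 99.5, 17 and 56.5 TPM in PI3K. Acta1, the actin of mature skeletal muscle, was at 8.05, 0.151 and 0.162 TPM in wild-type and 43.9, 1.19 and 14.9 TPM in PI3K. For both actins wild-type library 1 was above PI3K library 2. Of the troponins, which make the filament sensitive to calcium, slow Tnnt1 was at 12.5, 3.50 and 7.27 TPM in wild-type and 45.5, 8.75 and 23.6 TPM in PI3K. Tnnc1, the slow and cardiac troponin C, was at 11.2, 0.530 and 1.44 TPM in wild-type and 54.9, 4.41 and 27.1 TPM in PI3K. Tnnt1 thus stayed above 3 TPM in every palatal library, while Tnnc1 was near 1 TPM in wild-type libraries 2 and 3. The other 6 thin filament members peaked in PI3K library 1, from 6.95 TPM (Tnni2) to 23.7 TPM (Tnni1). In CPM, Tnni2 alone of the 10 did not show the full order. In TPM, Tnnt3 did not show it either, at 1.97 in wild-type library 1 and 2.11 in PI3K library 2.

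Of the 7 genes of the thick filament, titin and M-band, 6 showed the shared order in CPM and Myom1 did not. Mylpf was at 20.5, 5.29 and 3.26 TPM in wild-type and 95.1, 11 and 37.3 TPM in PI3K. Myh3, the embryonic myosin heavy chain, was at 5.17, 0.099 and 0.035 TPM in wild-type and 34.9, 2.61 and 17.1 TPM in PI3K. Wild-type libraries 2 and 3 held almost no Myh3 but several TPM of Mylpf, which was also at 4.00 to 7.38 TPM in every maxillary library. Myl1, a fast essential light chain, was at 5.01, 0.123 and 0.083 TPM in wild-type and 32.7, 2.44 and 15.4 TPM in PI3K. Myl4, the embryonic and atrial light chain, was at 6.21, 3.12 and 2.01 TPM in wild-type and 29.5, 2.57 and 15.1 TPM in PI3K, so that in TPM wild-type library 2 also exceeded PI3K library 2. The neonatal heavy chain Myh8 reached 4.44 TPM in PI3K library 1, and the giant spring protein gene Ttn 0.740 TPM. Myom1, which encodes the M-band protein myomesin, was at 4.54, 2.03 and 3.59 TPM in wild-type and 5.62, 2.01 and 4.42 TPM in PI3K, with PI3K library 2 the lowest.

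Genes of fusion, coupling and the nerve contact were lower, and Ryr1, Chrng and the energy enzyme gene Ckm did not show the shared order. Mymk (myomaker), the membrane protein that fuses myoblasts, was at 2.20, 0 and 0 TPM in wild-type and 9.54, 1.96 and 4.04 TPM in PI3K. Chrng (ENSMUSG00000026253.14; chromosome 1, 87204657 to 87212694, plus strand), the fetal γ subunit of the muscle acetylcholine receptor, was at 0.469, 0 and 0.039 TPM in wild-type and 2.49, 1.01 and 2.2 TPM in PI3K. All 3 PI3K libraries were above all 3 wild-type libraries for Chrng. This held for 1 of the 32 members tested, Chrng alone, against 2.91% of all genes tested. Ckm, the muscle creatine kinase of mature fibres, was at 0.366, 0 and 0 TPM in wild-type and 1.15, 0.110 and 0 TPM in PI3K.

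**Figure D2:**
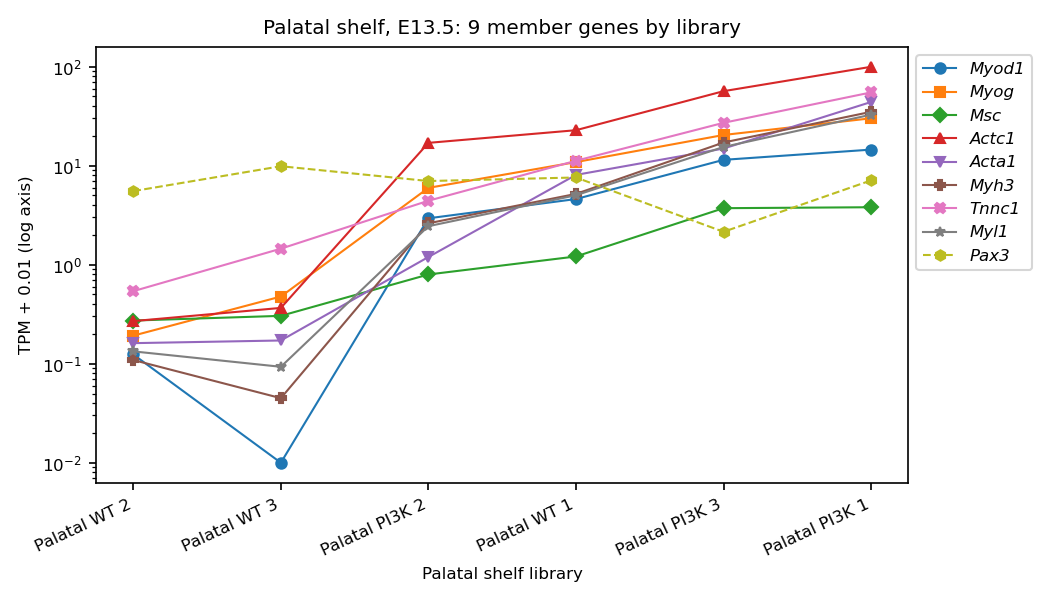
TPM + 0.01 (log axis) of 9 members in the 6 palatal shelf libraries, ordered along the x axis from wild-type 2 to PI3K 1; each line joins the values of 1 gene. Actc1 climbs from 0.259 TPM in wild-type 2 to 99.5 TPM in PI3K 1, with wild-type 1 at 22.8 TPM between PI3K 2 and PI3K 3, while Pax3 (dashed) does not climb.

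The genotype comparison in the palatal shelf called no member. By edgeR's quasi-likelihood test 0 of the 32 members tested passed a false discovery rate of 0.05, and 0% of the 16525 genes did. At an unadjusted p under 0.05 there were 13 members, all higher in PI3K (Myf5, Msc, Tnnt1, Tnnt2, Tnnt3, Tnnc2, Neb, Mylpf, Myl4, Ttn, Ryr1, Chrng and Musk), against 1.53% of all genes that were higher at that p. DESeq2 also called 0 members, where 5 genes (0.0303%) were called in all. At an unadjusted p under 0.05 by DESeq2 there were 14 members, all higher in PI3K, and 413 of the 16525 genes in either direction. Of the 32 members 31 had a higher mean estimate in PI3K and 1, Pax3, a lower one, where 48% of all genes were higher. The median log2 fold change was 2.53 over the members and -0.01 over all genes. Tcf21, Myf6 and Ckm did not pass the low-count filter; without it their edgeR adjusted p was 0.952, 0.993 and 0.952. Members near 0 in wild-type libraries could pass this filter through the PI3K libraries, so the counts and medians over members are a description.

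The single estimates were large with wide errors. Mean Actc1 was 7.80 ± 13.0 TPM (SD, n = 3) in wild-type and 57.7 ± 41.3 TPM (SD, n = 3) in PI3K, and mean Myh3 was 1.77 ± 2.95 and 18.2 ± 16.2 TPM. The SD in wild-type thus exceeded the mean for both. Actc1 had a log2 fold change of 2.88 (SE 1.43) and Myh3 one of 3.36 (SE 1.55), and the 95% intervals of both included 0. For Chrng the log2 fold change was 3.37 (SE 1.05), with an interval of 0.91 to 5.83 and an edgeR adjusted p of 0.9997 over all genes. Pax3 had a log2 fold change of -0.52 (SE 0.45). The values depended on single libraries. Without wild-type library 1 the members' median was 4.97, and 27 members were higher at an unadjusted p under 0.05 (3.11% of all genes), with edgeR adjusted p of at least 0.349. With members at 0 in both remaining wild-type libraries set to the bound that 3 counts give, that median was 4.72. Without PI3K library 1 the median was 1.72, and 1 member was higher at an unadjusted p under 0.05 (3.41% of all genes). Without wild-type library 3 there were 0 such members by edgeR (0.664% of all genes), at a median of 1.98.

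**Figure D3:**
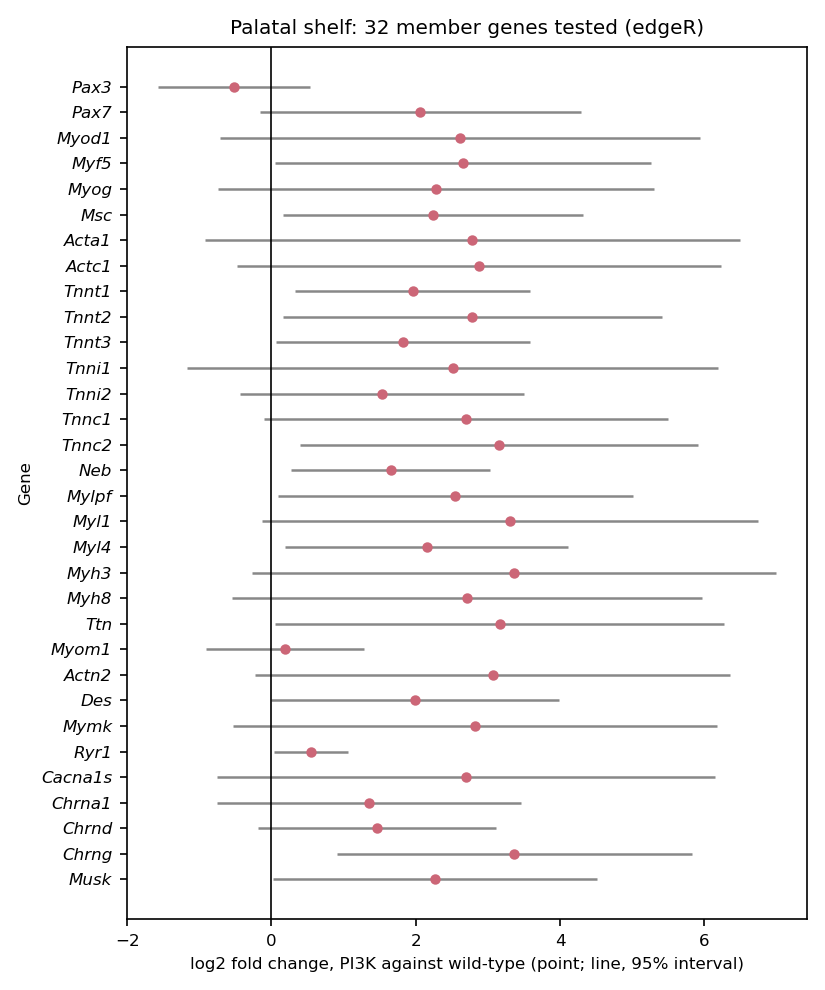
Log2 fold change of PI3K against wild-type palatal shelf for the 32 members tested (point) with its 95% interval (line), by edgeR; the vertical line marks no difference. Points for 31 members lie to the right of 0 and that of Pax3 to the left at -0.52, and most intervals cross 0.

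Ratios between members within a library, which set 1 muscle gene against another, were compared where both genes had at least 20 estimated counts. Myod1 stood to Myog at 0.423 in wild-type library 1 and 0.482, 0.492 and 0.561 in PI3K libraries 1 to 3, a narrow range. Pax7 to Myog was 0.0628 in wild-type library 1 and 0.0563, 0.0616 and 0.0669 in PI3K. Msc to Myod1 was 0.262 in wild-type library 1 and 0.261, 0.268 and 0.324 in PI3K. The ratios between the factors were thus nearly the same in wild-type library 1 and the PI3K libraries.

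Ratios that set late genes against early ones varied more. Acta1 to Actc1, the mature against the embryonic actin, was 0.353 in wild-type library 1 and 0.441, 0.0699 and 0.263 in PI3K libraries 1 to 3. PI3K library 2 was the lowest. Myh3 to Myog was 0.477 in wild-type library 1 and 1.16, 0.438 and 0.839 in PI3K, the 2 libraries richest in muscle RNA having the highest ratios. Actc1 to Myog ranged from 2.10 in wild-type library 1 to 3.31 in PI3K library 1. With 1 wild-type library that reached the count minimum, these ratios were not tested between genotypes.

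Other genes of muscle gave a weaker form of the same picture. Of 47 further skeletal muscle genes, 32 were tested in the palatal shelf: 29 were higher in PI3K and 3 lower, where 48% of all genes were higher. The number past the false discovery rate was 0 by edgeR or DESeq2. At an unadjusted p under 0.05, 4 were higher by edgeR (1.53% of all genes). By DESeq2 10 were, where 413 of 16525 genes had such a p in either direction. The median log2 fold change of the 32 was 1.47. Genes near 0 in wild-type libraries could pass the low-count filter through the PI3K libraries here too, so these values are a description. The largest estimates were those of Myh7 (3.16, SE 1.42), the slow myosin, Mybph (3.16, SE 1.49), a myosin-binding protein, Myot (2.78, SE 1.39), a Z-disc protein, Klhl31 (2.63, SE 1.29) and Atp2a1 (2.47, SE 1.1), the calcium pump of fast fibres. The adult fast myosins Myh1, Myh2 and Myh4 were below 0.5 TPM in all 12 libraries. So were 7 of 10 heart muscle genes, of which Nppa, Nppb and Myl2 were at 0 in every library, although Myh6, the α-cardiac myosin, reached 5.92 TPM in PI3K library 1. The upstream regulators did not share the pattern: Tbx1 was at 23.3, 32 and 20.5 TPM in wild-type and 28.1, 23.2 and 17.2 TPM in PI3K, and 5 of the 9 regulators tested were higher, with 1 at an unadjusted p under 0.05 (Erbb3, log2 fold change 0.43, SE 0.11).

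The genes whose palatal profile was most like the mean of the members, among 14337 other genes of at least 1 CPM on average, included further muscle genes. Over the 6 libraries Pearson's r, given as a description, was 0.997 for Atp2a1, 0.990 for Myom2 (M-protein), 0.989 for Mybph, 0.988 for Mylk4, 0.987 for Csmd2 and Synpo2l, 0.985 for the calcium store gene Casq2, 0.984 for Thbs4, 0.983 for Kcnh7 and 0.982 for Pitx3. Thbs4, which the tendon list holds, was at 6.78, 0.540 and 1.06 TPM in wild-type and 13.0, 3.26 and 7.92 TPM in PI3K. The 5 tendon markers as a whole, 3 higher and 2 lower, summed to 89.3 to 98.9 TPM in wild-type and 105 to 137 TPM in PI3K. The 9 neuron and glia markers, 8 higher and 1 lower in PI3K, with 2 at an unadjusted p under 0.05, summed to 46.6, 38.1 and 36.5 TPM in wild-type and 71.3, 34.1 and 65.5 TPM in PI3K, and none of the 9 was at 0 in a palatal library. Their sum was highest in the 3 libraries richest in muscle RNA. The 8 smooth muscle markers, 5 higher and 3 lower, summed to 72.1 to 127 TPM and 105 to 148 TPM, and the 8 macrophage markers to 98.7, 40.5 and 55.6 TPM and 76.6, 40.7 and 55.8 TPM. The part of these other cells in the muscle values was not tested.

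In the control maxillary process at E11.5 part of the set was at or near 0, while 8 members, among them Pax3, Mylpf, Des and Ryr1, had a mean of at least 1 TPM. Over the 3 control libraries 10 members had 0 counts (Myf5, Myf6, Tcf21, Tnnc2, Myh8, Mymk, Cacna1s, Chrnd, Chrng and Musk), which allows up to 0.0547 CPM (3 counts over the group, counting error only). The cKO libraries held 2 members at 0, Mymk and Ckm. Early factors and repressors were present in the cKO libraries. Sarcomere genes differed: Myh3 and Acta1 were near 0 in both groups, while some others were low but higher in cKO. Ttn had 3 counts over the controls and 40 over the cKO libraries, with overlapping groups. Actn2 had 2 to 4 counts per control library and 10 to 16 per cKO library. Chrna1, of the neuromuscular junction, had 1 to 3 and 10 to 18. Without the low-count filter their edgeR adjusted p was 0.265, 0.467 and 0.350. In that fit 27 of 34 members were higher in cKO and 7 lower. Members at 0 in the controls could only be higher.

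Msc (ENSMUSG00000025930.6; chromosome 1, 14753346 to 14755992, minus strand) was at 0, 0.182 and 0 TPM in controls and 8.94, 3.25 and 0.965 TPM in cKO. Tcf21 (ENSMUSG00000045680.8; chromosome 10, 22817281 to 22820174, minus strand) was at 0 in all controls and at 7.87, 1.35 and 1.07 TPM in cKO. Both genes had every cKO library above every control, with cKO library 1 far above the other two. Myod1 was at 0, 0.056 and 0 TPM in controls and 1.80, 0.758 and 1.32 TPM in cKO, without overlap and with less spread. In counts, Msc was 101-fold higher in the cKO (2 against 244 counts, 95% counting interval 27.8 to 842), Myod1 69.8-fold higher (1 against 84 counts, interval 12.2 to 2790) and Tcf21 at least 39.3-fold higher (0 against 142 counts).

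The remaining factors were lower. Myf5 was at 0 in all controls and at 1.33, 0.061 and 0.232 TPM in cKO, at least 10.5-fold higher over the group, with 31 of its 38 counts in cKO library 1. Myog was at 0.077, 0 and 0.179 TPM in controls and 0.314, 0.798 and 0.745 TPM in cKO. For Myog, cKO library 1 was the lowest of the 3. Actc1 was at 0.391, 0.073 and 0 TPM in controls and 2.94, 0.586 and 1.86 TPM in cKO. The groups did not overlap in TPM for Myf5, Myog or Actc1 either. All 3 were left out of the test by the low-count filter. Without it their edgeR adjusted p was 0.172 for Myf5, 0.332 for Myog and 0.136 for Actc1. Acta1 did not exceed 0.25 TPM and Myh3 did not exceed 0.11 TPM in any maxillary library, and Mymk was at 0 in all 6.

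Pax3 (ENSMUSG00000004872.15; chromosome 1, 78101267 to 78197134, minus strand) went the other way. It was at 31.5, 44.7 and 56.2 TPM in controls and 7.25, 16.2 and 26.9 TPM in cKO. Every cKO library was below every control, and cKO library 1, the highest for Msc and Tcf21, was the lowest for Pax3.

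**Figure D4:**
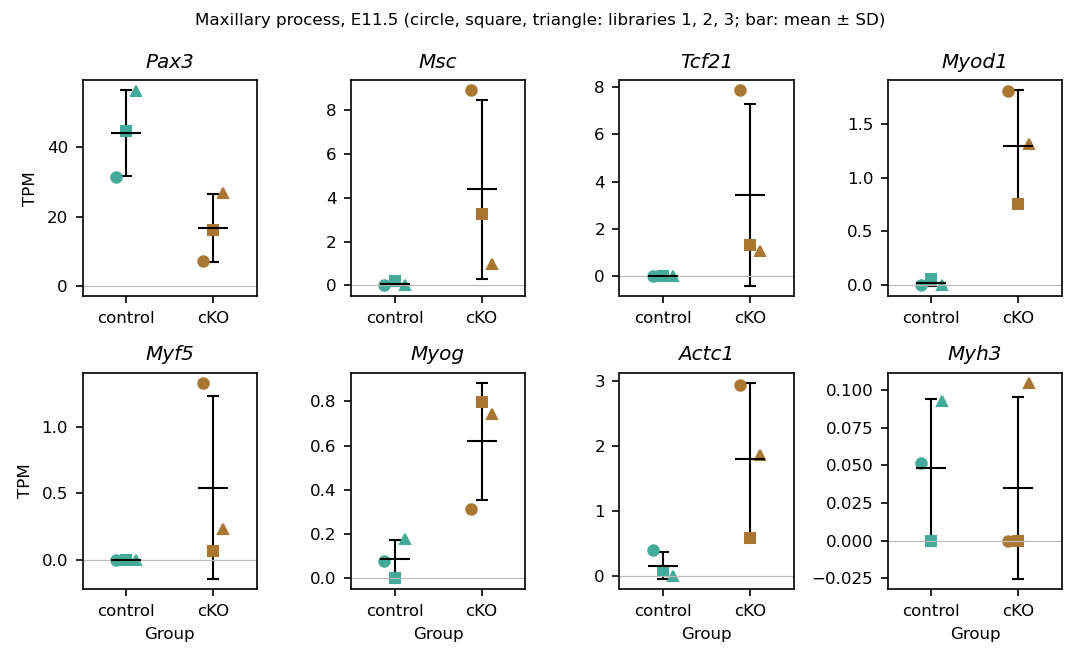
TPM of 8 members in control and cKO maxillary process (circle, square and triangle for libraries 1, 2 and 3; bar and whiskers, mean ± SD, n = 3; each panel has its own linear axis). Msc, Tcf21 and Myod1 are near 0 in controls and between 0.758 and 8.94 TPM in cKO, Pax3 is lower in cKO, and Myh3 stays below 0.11 TPM.

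By edgeR, 0 of the 11 members tested in the maxillary process passed the false discovery rate of 0.05, where 12 of 14254 genes (0.0842%) did. At an unadjusted p under 0.05 there were 3 members higher (6.34% of all genes) and 1 lower (5.91%). The 3 higher members, Myod1, Msc and Tcf21, had 1, 2 and 0 counts over the controls and passed the low-count filter only through the cKO libraries, so they had to come out higher and nothing is read from their count. The edgeR adjusted p was 0.0928 for Myod1 (log2 fold change 5.80, SE 0.87), 0.148 for Msc (6.51, SE 1.25), 0.256 for Tcf21 and 0.314 for Pax3 (-1.36, SE 0.42). DESeq2 called 3 of these members, with adjusted p of 0.00132 for Myod1, 5.2e-05 for Msc and 4.62e-05 for Tcf21, where 1.41% of all genes were called higher. Without a filter on low counts edgeR called the same 3 (0.366% of all genes were called higher), with adjusted p of 0.0143, 0.013 and 0.025. Over all alternatives tried, the adjusted p ranged up to 0.418 for Myod1, 0.591 for Msc and 0.675 for Tcf21, so the calls rest on the tool and the filter.

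Groups did not overlap in CPM (counts scaled by TMM-normalised library size) for 4 members tested and higher in the cKO, Myod1, Msc, Tcf21 and Tnnt3, against 8.24% of all genes, and for 1 lower, Pax3, against 10% of all genes. Myod1, Msc and Tcf21 passed the low-count filter only through the cKO libraries, so nothing is read from the count of higher members. Tnnt3, a fast troponin T, was at 0.313 to 0.541 CPM over the controls and at 0.549 to 0.613 CPM over the cKO libraries, but on the TPM scale its difference had the opposite sign (-0.20 on log2(TPM + 1)), and with library sizes not normalised its groups overlap. The 6 other members tested were Tnnt1, Neb, Mylpf, Myom1, Des and Ryr1, with log2 fold changes from -0.61 to 0.63 and edgeR adjusted p of 0.596 or more; the sign of 3 of them, Mylpf, Myom1 and Ryr1, reversed on the TPM scale. Of the 11 members 8 had a higher estimate in cKO, where 50.7% of all genes did. Myod1, Msc and Tcf21 are among the 8, so nothing is read from that count either. The median over the 11 members was 0.42, and it was the same with Tcf21 set to its lower bound.

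The ratio of Msc to Myod1 was set beside that in the palatal shelf where both genes had at least 20 counts. Msc to Myod1 was 4.95 in cKO library 1 and 4.29 in cKO library 2, where it had been 0.261 to 0.324 in the palatal shelf libraries that reached the count minimum. Below the count minimum, Msc was under Myod1 in cKO library 3 (0.965 and 1.32 TPM) and over it in wild-type palatal libraries 2 and 3. The difference in ratio thus holds for the libraries that reached the minimum. Stage, tissue and alleles differ between these libraries and cannot be told apart, and the ratio was not tested.

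Genes outside the set moved in the same cKO libraries. Of 7 upstream regulators tested, 5 were higher and all 5 had an unadjusted p under 0.05, with edgeR adjusted p of 0.292 or more. Tbx1, a regulator of jaw muscle, was at 5.57, 7.39 and 5.98 TPM in controls and 30.4, 14.5 and 7.85 TPM in cKO. As with Msc, cKO library 1 was the highest. The 8 endothelial markers were all higher in cKO without overlap, at a summed 170 to 180 TPM in controls and 427, 251 and 217 TPM in cKO. Neural crest mesenchyme markers were lower for 9 of 10, at 2087 to 2484 TPM and 1201 to 1909 TPM. Macrophage markers were higher for 8 of 8, at 17.8 to 21.5 TPM and 39.3, 22.6 and 24.4 TPM. Ectoderm markers, 4 of which were at 0 in at least 1 control library, summed to 1.66 to 6.6 TPM in controls and 8.13 to 13.7 TPM in cKO. The part of the make-up of the dissected tissue in the muscle values was not tested. The cKO library 1 was the highest for the endothelial and macrophage sums and the lowest for the neural crest sum. Without it Myod1 had a log2 fold change of 5.48, Msc of 5.33 and Pax3 of -0.998, with edgeR adjusted p of 0.123, 0.148 and 0.294.

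Of the 47 further skeletal muscle genes, 11 were tested in the maxillary process: 9 were higher and 2 lower, where 50.7% of all genes were higher. By edgeR 0 passed the false discovery rate, and 1 was higher at an unadjusted p under 0.05 (6.34% of all genes). That gene was Jph1, which joins the membranes of the calcium release unit (log2 fold change 0.79, SE 0.26). The other large estimates, of Nexn (0.92, SE 0.51), Cdh15 (0.75, SE 1.00), Stac3 (0.57, SE 0.82) and Pgam2 (0.55, SE 0.70), were within their errors of little or no change.

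**Figure D5:**
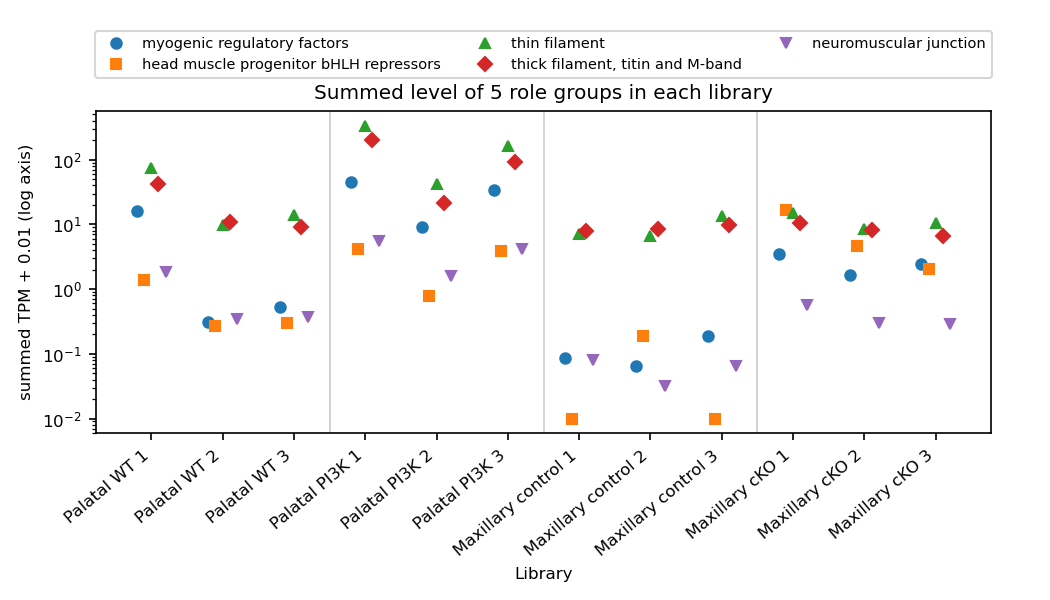
Summed TPM + 0.01 (log axis) of 5 role groups in each of the 12 libraries, with vertical lines between groups. Myogenic regulatory factors reach 45.6 TPM in palatal PI3K library 1 and do not exceed 0.179 TPM in the controls, and the repressors Msc and Tcf21 together are highest, at 16.8 TPM, in cKO library 1.

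Wild-type palatal shelf at E13.5 and control maxillary process at E11.5 were also compared, with the raw estimated counts of both tables joined. Stage, tissue, the floxed allele and the sequencing lane named in the descriptions all differ between these groups and cannot be told apart. Of 10 members tested, 3 passed the edgeR false discovery rate of 0.05, 2 higher and 1 lower in the palatal shelf, where 50.6% of 15752 genes passed, 27.1% higher and 23.4% lower. Nothing is read from the members' share, since the low-count filter decides which members enter it. Pax3 fell, from 31.5, 44.7 and 56.2 TPM in controls to 7.58, 5.52 and 9.85 TPM in the palatal shelf, with a log2 fold change of -2.67 (SE 0.26, edgeR adjusted p = 0.000309). Neb, the ruler protein of the thin filament, rose from 0.273, 0.169 and 0.740 TPM to 3.37, 1.46 and 1.75 TPM, with a log2 fold change of 2.33 (SE 0.53, edgeR adjusted p = 0.0089). Myl4 rose from 0.148, 0 and 0 TPM to 6.21, 3.12 and 2.01 TPM, a ratio of 79.7 in counts (1 against 145 counts, 95% counting interval 14.1 to 3169) with an edgeR adjusted p of 0.0028. In CPM the groups did not overlap for 3 members that were higher in the palatal shelf, Neb, Myl4 and Tnnt3 (32.9% of all genes), and for 1 that was lower, Pax3 (29%).

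The median log2 fold change of the 10 members was 0.91 and depended on wild-type library 1, without which it was 0.05 with 2 members called higher and 2 lower. The 10 members at 0 in the controls did not pass the low-count filter. Myh8 was at least 20.1-fold higher in the palatal shelf, Mymk at least 8.79-fold and Tnnc2 at least 6.41-fold. These bounds rest mostly on wild-type library 1. In wild-type libraries 1 to 3 the counts were 101, 2 and 7 for Myh8, 48, 0 and 0 for Mymk, and 29, 4 and 2 for Tnnc2. Without the filter on low counts 14 of 35 members passed by edgeR, 13 of them higher, where 29.7% of all genes passed in either direction. Some of the 13, such as Myh8, Tnnc2 and Chrnd, had 0 counts over the controls and could only come out higher, so nothing is read from this count. Of the further muscle genes 21 were tested, of which 7 were higher (27.1% of all genes) and 1 lower (23.4%) at the false discovery rate of 0.05. Those with the largest estimates were Itga7 (4.28, SE 0.72), the laminin receptor of muscle, Chrnb1 (2.36, SE 0.69), a receptor subunit, Pgam2 (2.02, SE 0.67) and Jph1 (1.81, SE 0.22), all higher in the palatal shelf with edgeR adjusted p of 0.0366 or less, and Myot (-1.88, SE 1.15), which was not called.

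Sequence shared between genes limits a few of these values. Of the 31-base words in member transcripts, 18.6% in Myh8, 14.5% in Myl1 and 11.1% in Myh3 also occur in another gene, mostly other myosins or a light chain pseudogene, and the estimated counts of these 3 depend on how the quantifier shared such reads. Acta1 shared 4.11%, mostly with Actb. Msc, Tcf21, Acta1, Actc1, Tnnt3, Tnnc1, Tnnc2, Ttn, Myom1, Des, Cacna1s and Ckm each overlap 1 gene on the opposite strand, and Neb, Ryr1 and Myl4 overlap more than 1, and use of strand is not given in the sources used here.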

How the data were processed

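Polyadenylated RNA of 12 libraries in 4 groups of 3 was used. The authors deposited Salmon estimated counts per gene and TPM, 1 table of each per tissue; Salmon 1.1.0, STAR 2.7.0, DESeq2 1.28.1 and build mm10 are named in the submitters' processing notes, without their roles, and the transcript index and strand setting are not given in the sources used here. The deposited TPM values are scaled by the authors for length and depth. Symbols, coordinates and overlaps came from GENCODE M21 (GRCm38), which matched 53355 of 53392 identifiers and left 37 unmatched; promoters came from RefSeq (GRCm38.p6), with 9 members not found there.

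Differences were tested on the rounded estimated counts by edgeR 4.0.16, run under R 4.3.3 (quasi-likelihood F-test, TMM, default low-count filter, group as the only term, Benjamini-Hochberg over all genes tested, threshold 0.05), for 3 comparisons on 6 libraries each. The standard error was derived from the F statistic. Alternatives were other normalisations and filters, DESeq2 1.42.0, limma 3.58.1 on log2(TPM + 1) and log2(TPM + 0.1), the replicate number as a block, and leaving out each library. On simulated data with the depth and spread of the PI3K comparison (16525 genes), edgeR recovered 47% of genes changed 2-fold and 80% of those changed 4-fold. For the cKO comparison (14254 genes) it recovered 50% and 83%. The changed genes were drawn at random from all genes tested, so these shares do not give the recovery of the muscle genes, whose spread was wide.

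Members, lists and tests were chosen with earlier results of these data known. Genes were named by rule: the 8 factors, the 8 other members highest in TPM, members called or without overlap, and the 5 largest of the further muscle genes per comparison. Musk, Tnnt2 and others named at an unadjusted p were chosen after their values were seen. The labels call the replicates biological without naming embryos or litters, so p-values measure the spread between these samples; libraries of a group differed by more than counting noise (chi-square per degree of freedom 11.7 to 65.1). Intervals and floors cover counting error only.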

Additional observations from a re-analysis of the deposited data

How the results depend on the processing

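In the palatal shelf comparison 0 members and 0 genes were called by edgeR under every normalisation, filter and left-out library tried, and DESeq2 called 5 genes, none of them a member. The members' median log2 fold change lay between 1.72 and 4.97 with 1 library left out. Of the single members, Myom1 alone reversed (-0.37 to 0.62 over left-out libraries; it was -0.05 when wild-type library 2 was dropped and -0.37 when PI3K library 1 was). In the maxillary process edgeR called 12 genes, and the number was 143 without a filter on low counts, 356 by DESeq2, 40 with the replicate block and 2 to 29 with 1 library left out (29 without cKO library 1, 6, 2 and 3 without control libraries 1, 2 and 3, and 4 without cKO library 2). Members called were 3 without the filter and 3 by DESeq2, and 0 with any library left out. The median over members was 1.54 without the filter, or 0.47 with members at 0 in a group set to their bound, and 0.40 to 1.54 with 1 library left out (1.54, 1.06 and 1.44 without control libraries 1, 2 and 3, and 0.75 without cKO library 2), where more members were tested. On log2(TPM + 1) and log2(TPM + 0.1) the sign reversed for Tnnt3 (-0.20 and -0.32), Mylpf (-0.19 and -0.22), Myom1 (0.22 and 0.40) and Ryr1 (0.075 and 0.13); the cause was not tested. With 1 library left out Mylpf ranged from -0.12 to 0.22 and Ryr1 from -0.20 to 0.13. Between wild-type palatal shelf and control maxillary process 14 members were called without the filter, with a median of 3.27 (2.07 with bounds), and 3 to 5 with 1 library left out (5 without wild-type library 2). Tnnc1 ranged from -0.43 to 2.26 and Mylpf from -0.60 to 1.48, both negative without wild-type library 1.

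Replicate numbers are shared between groups. Same-numbered libraries correlated in their deviations from the group means at 0.519, 0.221 and -0.218 in the palatal shelf and 0.0848, 0.115 and 0.225 in the maxillary process. Differently numbered libraries correlated at -0.560 to 0.386 in the palatal shelf and -0.225 to 0.131 in the maxillary process. These values do not settle whether the numbers pair the libraries. With the replicate block 0 members were called in the palatal shelf, at a median of 3.02, and 27 members had an unadjusted p under 0.05, against 13 without the block; 581 of 16525 genes did with the block and 354 without. In the maxillary process the block called 0 members (40 genes in all). In the control maxillary group 3 counts amount to 0.0547 CPM, below which nothing can be told from 0.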

Other observations

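The maxillary libraries had their own set of genes whose profile was like the mean of the 11 members tested there. That mean mostly followed Tcf21, Msc and Myod1 (r of 0.993, 0.977 and 0.974), which passed the low-count filter only through the cKO libraries. The mean did not stand for every member: r was -0.890 for Pax3, -0.257 for Myom1, -0.182 for Ryr1 and 0.181 for Mylpf. Over the 6 libraries, and as a description only, Pearson's r was 0.997 for St3gal5, 0.996 for Gabra2, 0.992 for Ace and 0.990 for Ntrk2, a neurotrophin receptor gene. Ntrk2 was at 0.225, 2.09 and 0.235 TPM in controls and 29.2, 5.98 and 4.32 TPM in cKO. It was highest in cKO library 1.

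Mymx (myomixer), the partner of Mymk in cell fusion, was at 1.62, 0 and 0 TPM in the wild-type palatal shelf and 6.62, 0.604 and 1.49 TPM in PI3K. Rapsn, which clusters acetylcholine receptors, was at 0.927, 0.0377 and 0.309 TPM in wild-type and 3.45, 0.419 and 1.94 TPM in PI3K. Both had wild-type library 1 above PI3K library 2.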
